A study of Mus musculus with 40 samples.

Results

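The CSB genotype was compared with the wild type on a standard diet in the mouse cerebellum. The comparison used 10 of the 40 libraries of the series, 6 labelled CSB SD (numbered 6, 8, 16, 26, 30 and 31) and 4 labelled WT SD (39, 40, 41 and 42), chosen by genotype and diet in their titles. CSB SD libraries carried the CSB genotype on the standard diet (SD), and WT SD libraries were wild type on the same diet. All were of total RNA depleted of ribosomal RNA from cerebella of male C57BL6 mice, and the labels give neither age nor allele. The other 30 libraries carried the genotypes CSB or WT on a ketogenic diet (KD), and INDY or DKO on either diet. INDY is another name of Slc13a5. The labels do not expand DKO, and in those libraries Slc13a5 read 0 to 0.934 and Ercc6 averaged 594 ± 59.0 on SD (SD, n = 4). The labels do not say whether each library came from its own animal, so p-values measure the spread between libraries. The number of a library is not explained either, and a handling order that followed the numbers of WT SD cannot be told apart from the genotype.

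CSB, for Cockayne syndrome protein B, is the product of Ercc6, a DNA-dependent ATPase of the SWI/SNF family. It binds RNA polymerase II stalled at DNA damage and recruits the factors of transcription-coupled nucleotide excision repair. Loss of CSB in humans causes Cockayne syndrome, in which demyelination and loss of cerebellar neurons are described. Microglia, the resident phagocytes of the brain, can pass from a surveying state to a state described in models of neurodegeneration and demyelination as disease-associated. In mice that state is marked by Itgax, Cst7, Clec7a and other genes of lipid sensing, phagocytosis and lysosomal breakdown, and depends in part on the receptor Trem2 and its adaptor Tyrobp.

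Values are normalised read counts per gene, and differences are of log2(value + 1), CSB SD minus WT SD, from a limma fit of all 40 libraries. A gene was called when its Benjamini-Hochberg adjusted p was under 0.05 over 21367 genes tested. Value sums ran from 24691019 to 26892567 in CSB SD and from 23736702 to 25324979 in WT SD, but normalisation removes depth, which is therefore unknown. Pearson correlations of log2 values were 0.958 to 0.977 within CSB SD, 0.97 to 0.98 within WT SD and 0.95 to 0.979 between the groups. Library CSB SD 16 stood apart with the lowest level of granule cell markers (10.8) and the highest of myelin genes (12.2), as mean log2(value + 1) over a list. Liver transcripts were present in some libraries, described with the tissue markers. A WT KD library, numbered 25, went against its label, and its values are given with the other groups.

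Ercc6 (ENSMUSG00000054051.7, chromosome 14, 32513521 to 32580990 in GRCm38) was present but lower in CSB SD. It read 641, 589.5, 590.5, 489.5, 583 and 663 in CSB SD libraries 6, 8, 16, 26, 30 and 31, against 927, 937, 934 and 879 in WT SD libraries 39 to 42. The groups did not overlap. The difference was -0.64 (SE 0.14, adjusted p = 0.0474), and its call ended in 18 of 26 alternatives. Slc13a5, the citrate transporter gene also called INDY, averaged 113 ± 12.3 (SD, n = 6) in CSB SD and 130.5 ± 23.8 (n = 4) in WT SD, with overlapping libraries. Its difference of -0.20 (SE 0.22, adjusted p = 0.746) did not pass.

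Gm6768 separated the CSB SD from the WT SD libraries. It is annotated as a processed pseudogene on chromosome 12 (119260978 to 119262855) and was listed at 0 in all 4 WT SD libraries. In CSB SD it read 1051, 986, 1207, 1089, 1025 and 1006 (adjusted p = 5.26e-08, with no fold against values at 0). Ncoa4 (chromosome 14, 32159865 to 32179855), the receptor that delivers ferritin to autophagosomes, averaged 2457 ± 169 (SD, n = 6) in CSB SD and 3557 ± 168 (n = 4) in WT SD. Its difference was -0.54 (SE 0.099, adjusted p = 0.00826), and the groups did not overlap.

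The transcripts of both genes are nearly the same in sequence. All 1878 bases of Gm6768 align to bases 161 to 2038 of transcript Ncoa4-202, which is the whole coding sequence, and 1876 are identical. The differences are A1312G and G1533A (the Ncoa4 base, the position counted from 1 at the start of Gm6768, and the Gm6768 base). Each is shown in capitals within 61 bases, from the GENCODE M21 transcripts of chromosomes 14 and 12 on GRCm38.
Ncoa4, first difference: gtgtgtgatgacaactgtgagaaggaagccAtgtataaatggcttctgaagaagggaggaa
Gm6768, first difference: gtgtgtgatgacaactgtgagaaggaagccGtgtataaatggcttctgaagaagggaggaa
Ncoa4, second difference: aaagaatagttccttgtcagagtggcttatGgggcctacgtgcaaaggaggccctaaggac
Gm6768, second difference: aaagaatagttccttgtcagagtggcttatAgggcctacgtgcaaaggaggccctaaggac
A read from any stretch without these bases could be counted for either gene, so that the value of each alone is uncertain. The sum of both was 3518 ± 182 (SD, n = 6) in CSB SD and 3557 ± 168 (n = 4) in WT SD. The sums differed by -0.016 on the log2 scale (two-sided exact permutation test over 210 relabellings of the libraries, p = 0.714, where the smallest possible is 0.00952). The means of the sums lay closer together than 1 SD of either group.

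Of the 21367 genes 29 were called (0.136%), 26 higher (0.122%) and 3 lower in CSB SD (0.014%). An unadjusted p under 0.05 was reached by 1683 genes (7.88%), 904 higher (4.23%) and 779 lower (3.65%). All CSB SD libraries lay above all WT SD libraries in 340 genes (1.59%) and below them in 420 (1.97%), together 760 genes whose groups did not overlap (3.56%). The median difference of all genes was 0.0076, and 51.3% lay above 0. The 3 lower calls were Ncoa4, Ercc6 and Kap. Leaving out WT SD 41 left 10 calls, leaving out WT SD 39 gave 18, and leaving out CSB SD 30 gave 50. With any single library left out, 8 genes remained called: Gm6768, Cd68, Mpeg1, Itgax, Cst7, C3ar1, Plau and Ncoa4. Without WT SD 41 calls that ended included those of Tyrobp, Trem2, C1qa, C1qb, Itgb2, Cd52, Ccl3, Ctsd, Clec7a, Nckap1l, Man2b1, Fcgr3, Cd14, Sh3bp5, Bcl2a1a, Cd48, Kap and Ercc6. Without WT SD 39 the calls of Gpnmb, Bcl3 and 11 of the others ended.

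**Figure D1:**
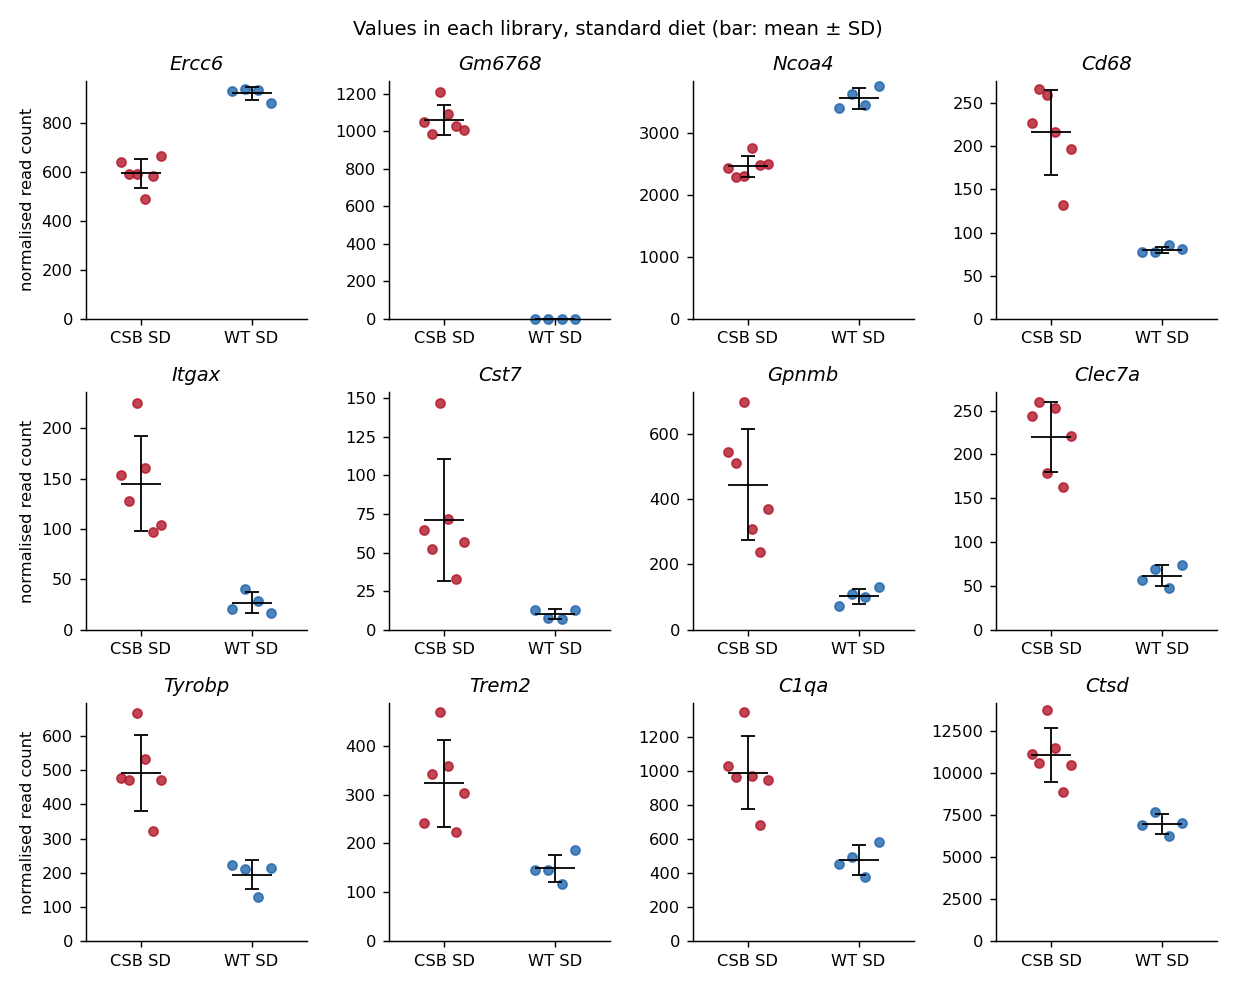
Normalised read counts of 12 called genes in each library of CSB SD (6 points, left) and WT SD (4 points, right), with the mean and SD as bars and the axis from 0. In each of the 12 panels no CSB SD library overlaps a WT SD library; Ercc6 and Ncoa4 are lower in CSB SD and the others higher.

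Genes of the disease-associated microglia state made up the largest group of calls. Of 35 genes listed for that state, all tested, 10 were called higher and none lower, and 26 had an unadjusted p under 0.05. All CSB SD libraries were above all WT SD libraries in 18 of the 35, and the median difference was 0.60. Over all 21367 genes the shares were 0.122% called higher, 4.23% higher at an unadjusted p under 0.05 and 1.59% without overlap above WT SD. Those shares also stand beside the counts of the lists below. All lists were chosen with earlier results of these data known. The mean log2 level of the disease-associated list ran from 8.89 to 9.74 in CSB SD and from 8.35 to 8.51 in WT SD. It averaged 9.33 ± 0.27 (SD, n = 6) in CSB SD and 8.43 ± 0.066 (n = 4) in WT SD. In bulk RNA a larger number of cells of a type and more RNA per cell cannot be told apart. Myelin, liver and mitochondrial transcripts also had positive medians in CSB SD, of 0.36, 3.39 and 0.34, and their part in the microglial differences was not tested beyond the covariates given with them.

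The 10 called genes of the list were Cd68, Itgax, Cst7, Tyrobp, Gpnmb, Cd52, Ccl3, Ctsd, Clec7a and Trem2. Itgax (ENSMUSG00000030789.9, chromosome 7, 128129547 to 128150657), the integrin alpha chain CD11c, read 154, 128, 225, 161, 96.8 and 104 in CSB SD, against 21.1, 40.8, 28.4 and 16.8 in WT SD. CSB SD 16 was highest, and the lowest CSB SD library was well above the highest WT SD library. The difference was 2.41 (SE 0.40, adjusted p = 0.00217). Clec7a, the beta-glucan receptor dectin-1 that signals through an ITAM-like motif, read 163 to 260.1 with a median of 232 in CSB SD, and 56.5, 69.6, 47.4 and 73.7 in WT SD. The 2 ranges did not overlap, and the difference was 1.81 (SE 0.36, adjusted p = 0.0128).

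Trem2, a receptor for lipids and apolipoproteins, read 242, 342, 470.1, 358, 223 and 304 in CSB SD, against 146, 145, 118 and 186 in WT SD. It rose by 1.09 (SE 0.23, adjusted p = 0.0221), a call that ended in 12 of 26 alternatives. Tyrobp, the ITAM adaptor DAP12 through which Trem2 signals, averaged 491 ± 112 (SD, n = 6) in CSB SD and 194 ± 43.3 (n = 4) in WT SD, a difference of 1.33 (SE 0.23, adjusted p = 0.00463). Both partners of the receptor complex were thus above every WT SD library. Cd52, a small glycosylphosphatidylinositol-anchored glycoprotein of leukocytes, rose by 1.45 (SE 0.27, adjusted p = 0.00895). Ccl3, the chemokine MIP-1 alpha, had low values of 12.5 to 44.1 in CSB SD and 5.27 to 10.3 in WT SD, and rose by 1.77 (SE 0.34, adjusted p = 0.00943).

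Cst7, an inhibitor of cysteine cathepsins, read 64.7, 52.3, 147, 71.4, 32.9 and 56.9 in CSB SD, against 12.6, 7.64, 6.94 and 13.1 in WT SD. CSB SD 16 was far above the other libraries, and the lowest CSB SD value was still above all of WT SD. The difference was 2.59 (SE 0.43, adjusted p = 0.00217). Gpnmb, a transmembrane glycoprotein of phagocyte lysosomes, read 544, 509, 696, 309, 238 and 368 in CSB SD, against 73.5, 108, 99.9 and 129.7 in WT SD. It rose by 2.04 (SE 0.37, adjusted p = 0.00769).

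Cd68 (ENSMUSG00000018774.13, chromosome 11, 69664213 to 69666153), a lysosomal membrane glycoprotein of macrophages, read 227, 266, 259.9, 216, 132 and 197 in CSB SD, against 77.4, 77.5, 85 and 80.7 in WT SD. The WT SD libraries lay close together, while the CSB SD libraries were spread out, with CSB SD 30 lowest. The difference was 1.39 (SE 0.21, adjusted p = 0.00116), and the call held in all 26 alternatives, with differences of 1.10 to 1.52. Ctsd, the aspartyl protease cathepsin D, averaged 11046 ± 1600.1 (SD, n = 6) in CSB SD and 6954 ± 577 (n = 4) in WT SD. Its difference was smaller, at 0.66 (SE 0.13, adjusted p = 0.0114), and the groups did not overlap.

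Other members of the list did not pass. Named after their values were seen, Apoe, the lipid carrier apolipoprotein E, averaged 23539 ± 3318 in CSB SD and 17128 ± 674 in WT SD (difference 0.45, adjusted p = 0.187). Lyz2, the macrophage lysozyme, differed by 1.33 (SE 0.36, adjusted p = 0.207), and in both genes the groups did not overlap although neither passed. Spp1, the secreted phosphoprotein osteopontin, differed by 0.55 (SE 0.44, adjusted p = 0.664) with overlapping libraries. Lpl, lipoprotein lipase, differed by -0.34 (SE 0.24, adjusted p = 0.634) and was the lowest member of the list.

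Of 23 tested complement genes 5 were called higher, C1qa, C1qb, C3ar1, Itgax and Itgb2. Itgax is also a member of the disease-associated list, and Itgb2 of the integrin list. In the complement list 11 genes had an unadjusted p under 0.05 in that direction and 9 had all CSB SD libraries above WT SD, with a median of 0.76. C1qa, the A chain of the C1q recognition protein, read 1032, 964, 1350, 970.3, 680 and 945 in CSB SD, against 455, 493.1, 375 and 584 in WT SD. It rose by 1.04 (SE 0.19, adjusted p = 0.00769), and C1qb, the B chain, by 1.03 (SE 0.20, adjusted p = 0.00943). C1qc, the remaining chain, differed by 0.88 (SE 0.20, adjusted p = 0.0567) and did not pass. All 3 chains separated the groups without overlap. With the liver gene level as a covariate the median of the list was 0.20.

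C3ar1, the receptor for the C3a fragment, read 80.6, 95.7, 98, 79.8, 66.7 and 97.4 in CSB SD, against 35, 41.3, 35.2 and 42.7 in WT SD. The difference was 1.14 (SE 0.19, adjusted p = 0.00217). C4b, a complement component made by glia, read 2821, 2045, 6629, 3088, 1745 and 2729 in CSB SD, against 1057, 1503, 948 and 1150.0 in WT SD. Its groups did not overlap, but the spread within CSB SD was wide and the difference of 1.32 (SE 0.31, adjusted p = 0.0765) did not pass. C4b has a near-identical copy, C4a, so that its own value is uncertain.

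Receptors for immunoglobulin G and their signalling partners were tested as 25 genes. Of these 4 were called higher, among them Tyrobp, Trem2 and Fcgr3, 17 had an unadjusted p under 0.05 and 10 did not overlap, with a median of 0.72. Tyrobp and Trem2 were also calls of the disease-associated list. Fcgr3, an activating Fc gamma receptor, rose by 1.05 (SE 0.21, adjusted p = 0.0193), and its call ended in 13 of 26 alternatives. Fcgr2b, the inhibitory receptor, differed by 0.72 (SE 0.17, adjusted p = 0.0623), and Inpp5d, the lipid phosphatase SHIP1, by 1.15 (SE 0.30, adjusted p = 0.176). Neither passed, and Inpp5d overlapped.

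Itgax and its partner Itgb2 were the called members among 18 leukocyte integrin and NADPH oxidase genes, 8 of which had an unadjusted p under 0.05. Itgb2, the beta-2 chain CD18, read 181, 171, 303, 216, 143 and 206 in CSB SD, against 92.9, 84.6, 75.7 and 64.9 in WT SD. It rose by 1.32 (SE 0.25, adjusted p = 0.00895). Cybb, the catalytic subunit of the phagocyte oxidase, averaged 135 ± 9.75 in CSB SD and 55 ± 12 in WT SD, a difference of 1.31 (SE 0.44, adjusted p = 0.492). Cyba, its partner in the membrane, differed by 0.66 (SE 0.19, adjusted p = 0.32). Both oxidase genes separated the 10 libraries without overlap and did not pass in the fit over 40 libraries, which takes its spread from all 8 groups. In WT KD, outside the comparison, Cybb read 598 in library 12 and 23.1 to 168 in the others.

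Among 38 lysosomal genes 33 lay above 0, and 22 had an unadjusted p under 0.05, all of them higher. The 5 called were Cd68, Cst7, Gpnmb, Man2b1 and Ctsd, and all but Man2b1 were also calls of the disease-associated list. The median of 0.29 was smaller than that of the receptor lists. The level of the list was 9.82 to 10.35 in CSB SD and 9.52 to 9.64 in WT SD, with no overlap. Man2b1, the lysosomal alpha-mannosidase, rose by 0.45 (SE 0.086, adjusted p = 0.00943). Ctss, cathepsin S, differed by 0.80 (SE 0.19, adjusted p = 0.0837) and Ctsz, cathepsin Z, by 0.55 (SE 0.12, adjusted p = 0.051), and neither passed.

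Further calls included genes of phagocytes and leukocytes, though the cells that each call came from were not measured. Mpeg1, the pore-forming protein perforin-2 of phagocytes, read 1061, 1001, 1492, 1132, 632 and 1033 in CSB SD, against 335, 484, 386 and 417 in WT SD. It rose by 1.35 (SE 0.21, adjusted p = 0.00116) and stayed called in all 26 alternatives. Cd14, a co-receptor for lipopolysaccharide on chromosome 18, averaged 59.1 ± 5.68 in CSB SD and 30.6 ± 8.97 in WT SD, a difference of 0.96 (SE 0.20, adjusted p = 0.0193). Plau, the urokinase plasminogen activator, rose by 1.37 (SE 0.24, adjusted p = 0.00554). Bcl3, an atypical inhibitor of NF-kappa-B, had low values of 9.37 to 18.6 in CSB SD and 1.44 to 4.14 in WT SD (adjusted p = 0.00782). Bcl2a1a, an anti-apoptotic gene with close copies beside it, read 6.42 to 21.7 in CSB SD and 0.985 to 4.24 in WT SD. Its value is uncertain because reads may be shared among copies, and its call ended in 16 of 25 alternatives.

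**Figure D2:**
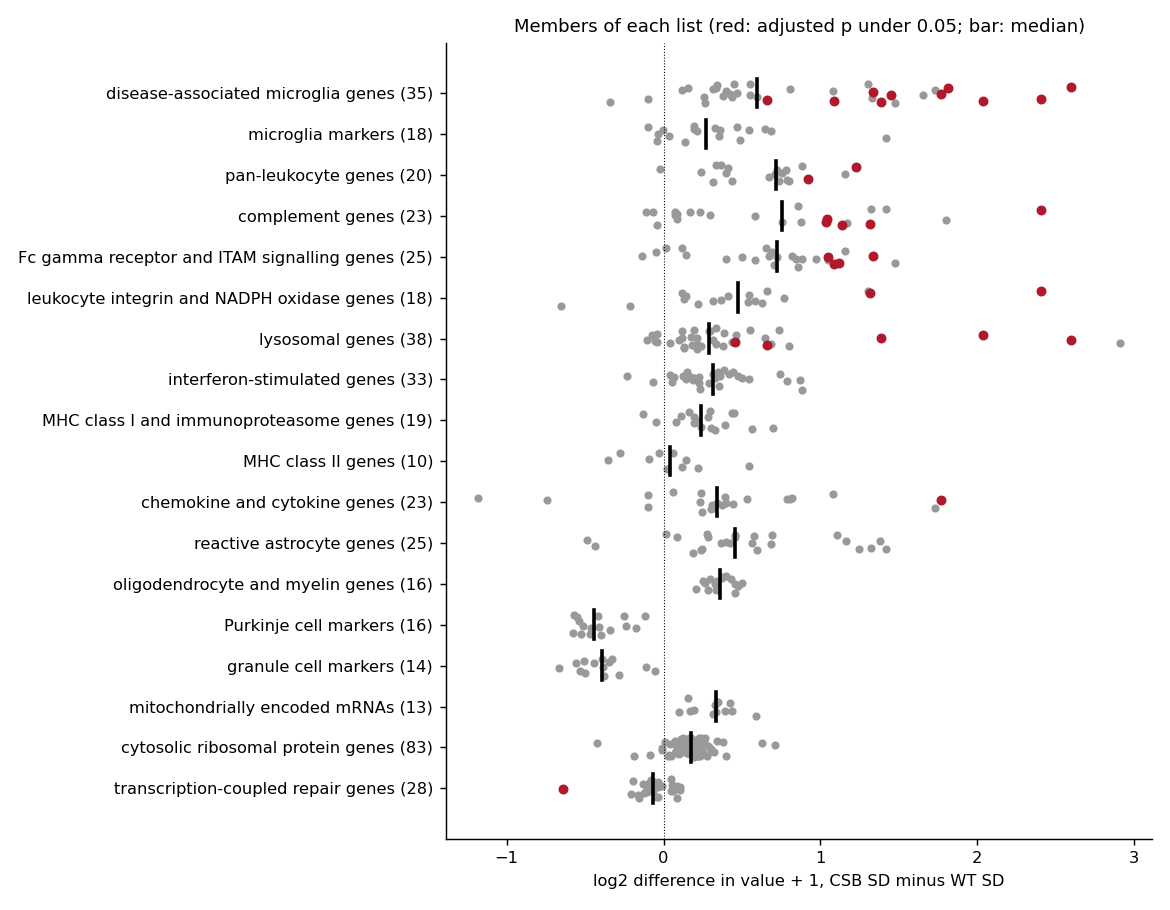
Log2 differences, CSB SD minus WT SD, of the tested members of 18 gene lists, with the number tested in parentheses, called members in red and the median as a bar. Medians are 0.60 for disease-associated microglia genes, 0.27 for microglia markers, 0.36 for myelin genes, -0.44 for Purkinje cell markers and -0.39 for granule cell markers.

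The medians of general microglia markers and of the disease-associated state were 0.27 and 0.60, a difference that was not tested. Of 18 markers tested 14 lay above 0 and 0 were called. Their levels were 7.94 ± 0.25 in CSB SD and 7.62 ± 0.14 in WT SD. Across the 8 groups WT SD was lowest for these markers, and the other groups had mean levels of 7.85 to 8.17. INDY SD was at 7.94 ± 0.22. An unadjusted p under 0.05 was reached by 6 of the markers, all higher, and 2 did not overlap. Those 2 were Fcrls, an Fc receptor-like gene of mouse microglia (difference 1.42, SE 0.35, adjusted p = 0.12), and Olfml3, a secreted olfactomedin-like protein (0.65, SE 0.17, adjusted p = 0.199). The fractalkine receptor Cx3cr1 differed by 0.55 (SE 0.20, adjusted p = 0.574). P2ry12, the purinergic receptor of surveying microglia, named after its value was seen, averaged 397 ± 96.9 in CSB SD and 401 ± 65.3 in WT SD. Tmem119, another marker of resident microglia named in the same way, averaged 198 ± 52.5 in CSB SD and 175 ± 9.25 in WT SD. Neither P2ry12 nor Tmem119 passed, and the libraries overlapped in both. With the level of the microglia markers as a covariate 15 genes were called, all of them among the 29.

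Of 20 genes common to leukocytes 2 were called and 13 had an unadjusted p under 0.05, with a median of 0.72. The called genes were Nckap1l, the haematopoietic subunit of the WAVE actin regulator (0.92, SE 0.18, adjusted p = 0.0132), and Cd48, an adhesion protein of the SLAM family (1.22, SE 0.27, adjusted p = 0.0459). The call of Cd48 ended in 17 of 26 alternatives. Cd53, a leukocyte tetraspanin, differed by 0.79 (SE 0.19, adjusted p = 0.0837), and Adgre1, the macrophage receptor F4/80, by 0.86 (SE 0.19, adjusted p = 0.05004). Markers of lymphocytes and granulocytes were sparse, with 9 of 18 tested, 0 called and summed values of 188 to 447 in CSB SD and 168 to 272 in WT SD. Cd3e, Cd4, Cd2, Mpo and Elane were among the 9 too low to test. Markers of border macrophages and monocytes, 12 tested, had 0 called and 1 with an unadjusted p under 0.05.

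Interferon and antigen presentation genes gave no call. Of 33 interferon-stimulated genes 0 were called and 4 had an unadjusted p under 0.05, with a median of 0.31. Lgals3bp, a secreted galectin-binding glycoprotein, differed by 0.74 (SE 0.20, adjusted p = 0.186), and Oasl2, an oligoadenylate synthetase-like gene, by 0.87 (SE 0.33, adjusted p = 0.592). Of 19 MHC class I and immunoproteasome genes 0 were called and 5 had an unadjusted p under 0.05. Among them Psmb8, an immunoproteasome subunit, differed by 0.56 (SE 0.18, adjusted p = 0.408), and H2-K1 and B2m, the chains of class I, by 0.45 and 0.44 (adjusted p = 0.408 and 0.459). None of the 10 MHC class II genes reached an unadjusted p under 0.05, and the list had a median of 0.040. H2-Ab1, a class II beta chain, averaged 56.5 ± 14.5 in CSB SD and 67.5 ± 13.5 in WT SD.

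Astrocyte genes of injury were compared as 25 reactive astrocyte genes, of which 0 were called, 11 had an unadjusted p under 0.05 and 4 did not overlap, with a median of 0.45. Gfap, the intermediate filament of astrocytes, read 6861, 7965, 23826, 12564, 6144 and 11028 in CSB SD, against 4019.7, 5755, 3435 and 5383 in WT SD. CSB SD 16 and 26 were highest, every CSB SD library was above WT SD, and the difference of 1.16 (SE 0.35, adjusted p = 0.363) did not pass. Timp1, a metalloproteinase inhibitor, differed by 1.25 (SE 0.35, adjusted p = 0.277). General astrocyte and Bergmann glia markers, 13 tested, had 0 called and a median of 0.022.

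Neuronal and myelin transcripts differed between libraries along with these groups. All 16 Purkinje cell markers were below 0 (median -0.44) and all 14 granule cell markers (median -0.39), with 0 called and 0 at an unadjusted p under 0.05 in either list. All 16 and all 14 of these markers read 10 or more in every WT SD library. So did all 16 choroid plexus genes and 11 of 20 forebrain genes, so that this floor cannot identify the tissue. All 16 myelin and oligodendrocyte genes were above 0 (median 0.36), with 0 called and 1 at an unadjusted p under 0.05. That gene was Cldn11, the tight junction protein of myelin (0.50, SE 0.23, adjusted p = 0.612).

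The spread of these tissue markers was wider than their differences. Myelin levels ran from 10.87 to 12.23 in CSB SD and from 10.70 to 11.48 in WT SD, and granule cell levels from 10.80 to 12.54 in CSB SD and from 11.87 to 12.54 in WT SD. CSB SD 30 had the lowest myelin level of CSB SD and a microglia marker level (7.58) inside the WT SD range of 7.49 to 7.82. Its disease-associated level was 8.89, against 8.35 to 8.51 in WT SD. Within CSB SD the disease-associated and myelin levels rose in the same order of libraries, 30, 8, 6, 31, 26 and 16. The cause of that order was not tested. CSB SD 16 and WT SD 41 had the highest and lowest myelin levels, and without both, in a fit of fewer libraries, 3 genes remained called, Gm6768, Cd68 and Mpeg1. The differences of the 29 genes were then 79.2% to 111.3% of those with all libraries, as in Itgax (2.32, adjusted p = 0.0588), Cst7 (2.21, adjusted p = 0.105) and Trem2 (0.87, adjusted p = 0.632). With the myelin level as a covariate 24 of the 29 remained, and with the granule cell level 26 of the 29.

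**Figure D3:**
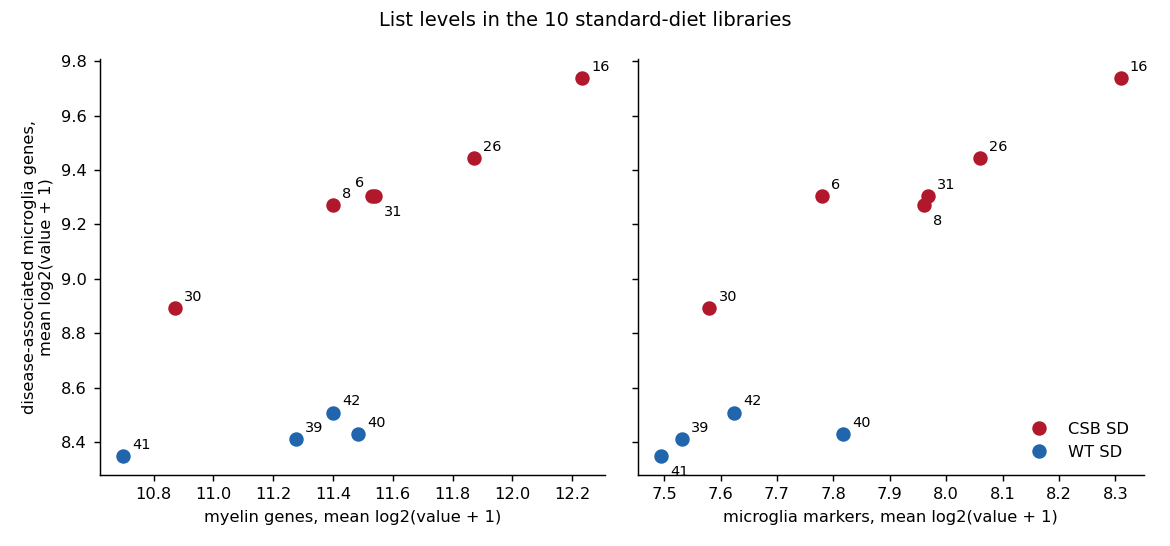
Mean log2(value + 1) of 35 disease-associated microglia genes in the 10 libraries, labelled by number, against the level of 16 myelin genes (left) and of 18 microglia markers (right). CSB SD libraries (red) lie between 8.89 and 9.74 and WT SD libraries (blue) between 8.35 and 8.51, also where the myelin levels overlap. Within CSB SD the disease-associated level rises with the myelin level, from library 30 (myelin 10.87) to library 16 (myelin 12.23).

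Genes of the pathway that CSB serves showed little. Of 28 transcription-coupled and nucleotide excision repair genes 1 was called, Ercc6 itself, and no other had an unadjusted p under 0.05. Ddb2, a damage sensor of global repair, differed by -0.21 (SE 0.11, adjusted p = 0.612), Uvssa, a partner of CSB at stalled polymerase, by -0.16 (SE 0.098, adjusted p = 0.618) and Cul4a, the scaffold of the associated ubiquitin ligase, by -0.16 (SE 0.095, adjusted p = 0.615). Of 28 p53 target genes 0 were called, and Tnfrsf10b, a death receptor, had an unadjusted p under 0.05 with a difference of -0.51 (adjusted p = 0.612). Of 28 PARP, sirtuin and NAD genes 0 were called, and 1 had an unadjusted p under 0.05.

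Stress and energy genes gave small shifts with no call outside Ncoa4. Of 28 antioxidant genes 27 lay above 0, and 6 had an unadjusted p under 0.05. Across the 8 groups WT SD had the lowest mean level of that list, at 9.825. CSB SD and INDY SD were both at 10.03. Gpx3, a secreted glutathione peroxidase, averaged 192 ± 41.2 in CSB SD and 104 ± 20.0 in WT SD without overlap (0.87, SE 0.27, adjusted p = 0.361). Gpx1, the cytosolic enzyme, differed by 0.43 (SE 0.14, adjusted p = 0.461). Among 21 iron handling genes Ftl1, the ferritin light chain, differed by 0.28 (SE 0.095, adjusted p = 0.507) without overlap. Hspa5, the endoplasmic reticulum chaperone BiP, and Dnajb1, an HSP40 co-chaperone, differed by 0.32 and 0.36 (adjusted p = 0.361 each).

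Mitochondrially encoded mRNAs were above 0 in 13 of 13 genes, 7 with an unadjusted p under 0.05 and 0 called, with levels of 14.32 ± 0.081 in CSB SD and 14.00 ± 0.097 in WT SD. mt-Cytb, the cytochrome b of complex III, averaged 60469 ± 5051 in CSB SD and 45008 ± 3275 in WT SD (0.42, SE 0.12, adjusted p = 0.32). Across the 8 groups WT SD was lowest for these mRNAs, and the other groups had mean levels of 14.28 to 14.54. Nuclear oxidative phosphorylation genes, 84 tested, had 77 above 0 and 0 at an unadjusted p under 0.05. Cytosolic ribosomal protein genes had 78 of 83 above 0, 4 at an unadjusted p under 0.05 and 0 called. WT SD also had the lowest mean level of the 8 groups for the nuclear (10.30) and the ribosomal list (10.95).

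Transcripts typical of other organs were unequal between the groups. Of 21 liver genes 20 lay above 0 with a median of 3.39, 15 had an unadjusted p under 0.05 and 0 were called. Mup20, a major urinary protein of liver, read 2369, 3.64, 13.3, 350.9, 20.3 and 41.7 in CSB SD, against 4.26, 2.18, 0 and 0 in WT SD. Libraries 6 and 26 were far above the rest, and CSB SD 8 was in the WT SD range. Summed over 19 liver genes, without Ttr and Trf, values were 108 to 18932 in CSB SD and 86.2 to 148 in WT SD. Without CSB SD 6 and 26, 12 genes were called, and with the liver level as a covariate 11, all of them among the 29.

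Kap, the kidney androgen-regulated protein, is the called gene that belongs to another organ. It read 0, 0, 8.504, 0, 0 and 0.975 in CSB SD, against 36.2, 15.2, 76.7 and 8.32 in WT SD. One CSB SD library overlapped the lowest WT SD library, and with values at 0 no fold is given (adjusted p = 0.0191). Of 8 tested kidney genes, a list added after Kap was seen, 4 had an unadjusted p under 0.05, all lower, among them Slc6a18 and Slc22a19, transporters of the proximal tubule. The summed value of 18 kidney genes was 63.1 to 90.8 in CSB SD and 84.6 to 243 in WT SD. The part of such transcripts in other results was not tested beyond the covariates given.

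Several calls lay near Ercc6 on chromosome 14. Within 15 Mb of the Ercc6 start 245 genes were tested and 4 called, Plau, Sh3bp5, Ncoa4 and Ercc6. In the rest of chromosome 14 0 of 560 were called, and over all 21367 genes 29 (0.136%). Plau lay at -11.7 Mb from the Ercc6 start. The value of Ncoa4 alone is uncertain, and its sum with Gm6768 differed by -0.016. Sh3bp5 (chromosome 14, 31359880 to 31436078), an exchange factor for Rab11, averaged 1324 ± 116 in CSB SD and 877 ± 108 in WT SD. It rose by 0.60 (SE 0.13, adjusted p = 0.0296). Galnt15 (chromosome 14, 32028989 to 32062197), a glycosyltransferase between Sh3bp5 and Ncoa4 in position, read 213, 349, 565, 347, 175 and 320.3 in CSB SD, against 1029, 849, 1274 and 1032 in WT SD. The groups were far apart, yet the difference of -1.76 (SE 0.41, adjusted p = 0.0837) did not pass. Opn4, melanopsin, also in this window and named after its values were seen, differed by 2.27 (SE 0.54, adjusted p = 0.0837). Linked sequence and the CSB genotype cannot be told apart for these genes.

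**Figure D4:**
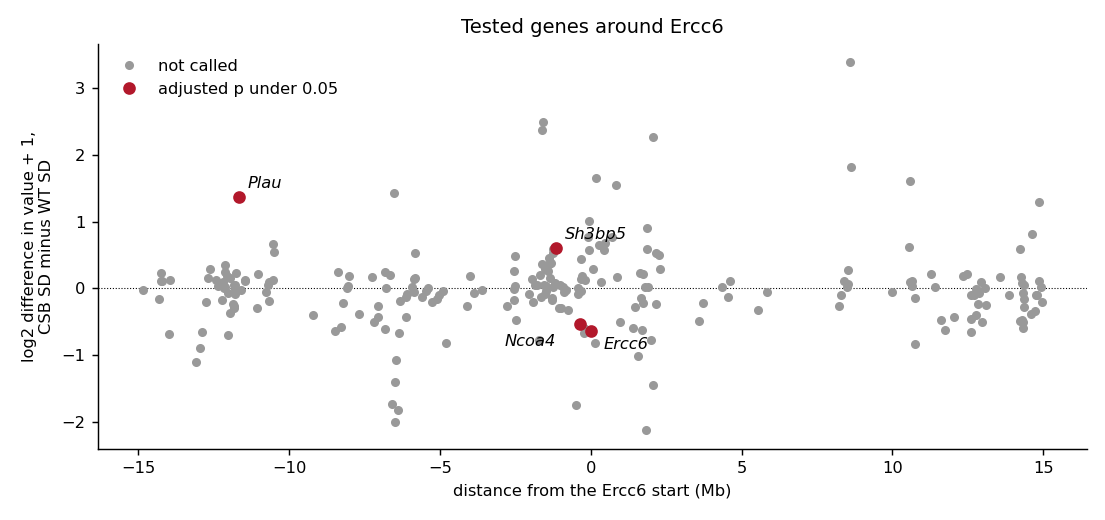
Log2 difference, CSB SD minus WT SD, of 245 tested genes against their distance from the Ercc6 start in Mb, with called genes in red. Ncoa4 and Ercc6 are below 0, Plau and Sh3bp5 are above 0, and 123 of the 245 genes are below 0.

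A cluster of zinc finger genes on chromosome 2 (174643534 to 177957297 in GRCm38) held many of the lower genes that did not pass. It was picked after values were seen. Of 55 genes tested there 51 were below 0, 25 had an unadjusted p under 0.05 and were lower, and 0 were called, with a median of -0.39. Gm6710 averaged 636 ± 42.6 in CSB SD and 860 ± 58.6 in WT SD (-0.43, SE 0.10, adjusted p = 0.0837). Gm14399 and 2210418O10Rik, in the same cluster, differed by -0.47 and -0.55 (adjusted p = 0.217 and 0.25). The window was set by position and also holds Edn3, which is not a zinc finger gene. Many of the others are close copies, though their identity was not measured here. Reads may be split among copies, so that single values are uncertain. The mean level over the cluster was 7.23 ± 0.20 in CSB SD and 7.62 ± 0.037 in WT SD, and WT SD was the highest of the 8 groups, with INDY SD next at 7.44 ± 0.036. The first part of chromosome 14, which also holds such copies and was likewise picked after values were seen, had 25 of 50 tested genes below 0 and a median of 0.026, with 12 lower and 5 higher at an unadjusted p under 0.05 and 0 called.

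Promoter sequences of the called genes were read from RefSeq (GRCm38.p6, 250 bases before to 50 after each start), which held windows for 20 of the 29 genes and 17 of the 26 higher ones. The motifs searched on both strands were TGACTCA, the AP-1 element, GAGGAA and the longer GAGGAAGT, which contains it, of ETS factors such as PU.1, and CACGTG and TCACGTGA, which contains it, of the E-box family that TFEB binds. TGACTCA was found in 4 of the 17 windows (C3ar1, Cd68, Gpnmb and Itgax), against 4.69% of the tested genes with a window. GAGGAA was found in 9 of 17, against 30.49%, and GAGGAAGT in 2 of 17, against 3.41%. CACGTG and TCACGTGA were each found in 1 of 17, Ctsd, against 10.56% and 1.81%. The windows of Cd68 (chromosome 11, minus strand, 69666121 to 69666420), Itgax (chromosome 7, plus strand, 128129300 to 128129599) and Ctsd (chromosome 7, minus strand, 142387778 to 142388077) are shown because they hold these matches, in capitals.
Cd68: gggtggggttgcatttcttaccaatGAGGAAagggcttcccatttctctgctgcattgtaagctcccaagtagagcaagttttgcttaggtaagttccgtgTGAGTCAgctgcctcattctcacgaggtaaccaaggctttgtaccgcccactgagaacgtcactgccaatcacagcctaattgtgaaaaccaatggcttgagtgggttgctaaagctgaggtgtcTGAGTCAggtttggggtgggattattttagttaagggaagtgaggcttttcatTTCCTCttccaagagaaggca
Itgax: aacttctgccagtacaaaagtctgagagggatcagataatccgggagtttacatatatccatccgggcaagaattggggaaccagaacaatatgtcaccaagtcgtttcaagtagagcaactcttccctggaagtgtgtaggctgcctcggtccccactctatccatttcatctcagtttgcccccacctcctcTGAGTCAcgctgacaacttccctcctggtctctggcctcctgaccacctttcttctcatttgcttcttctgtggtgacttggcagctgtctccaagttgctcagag
Ctsd: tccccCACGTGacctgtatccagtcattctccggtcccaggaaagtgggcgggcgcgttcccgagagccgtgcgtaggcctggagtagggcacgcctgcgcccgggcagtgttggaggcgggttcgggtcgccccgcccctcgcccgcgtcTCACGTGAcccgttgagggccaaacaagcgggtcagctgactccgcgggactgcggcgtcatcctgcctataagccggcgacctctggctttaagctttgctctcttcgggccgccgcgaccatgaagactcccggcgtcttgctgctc
In Cd68 the AP-1 element lies on the opposite strand, as TGAGTCA, at -149 and -24 from the start, and in Itgax at -56. A match describes these letters only, and no binding was measured.

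The difference between CSB and WT was then set beside that on the ketogenic diet and that between DKO and INDY, in the same fit. Mean log2 levels of 20 forebrain genes were unequal between these groups. They were 5.24 ± 0.18 in CSB SD, 5.07 ± 0.10 in WT SD, 5.71 ± 0.95 in CSB KD and 6.74 ± 1.22 in WT KD. DKO SD was at 6.94 ± 2.13 and INDY SD at 5.98 ± 1.18. The part of forebrain RNA in either comparison was not tested beyond the covariate fit. The diet difference, (CSB SD minus WT SD) minus (CSB KD minus WT KD), gave 0 called genes, with 1369 at an unadjusted p under 0.05 (6.41%), 678 of them positive (3.17%). The genotype difference, (CSB SD minus WT SD) minus (DKO SD minus INDY SD), gave 0 called genes as well, with 701 at an unadjusted p under 0.05 (3.28%), 437 of them positive (2.05%). With array weights, which weight libraries by their spread, 3 genes were called for the diet difference, Itgb2 (1.73, SE 0.30, adjusted p = 0.0212), Nckap1l (1.11, SE 0.20, adjusted p = 0.0212) and Gpx3 (1.76, SE 0.32, adjusted p = 0.0228). Without the weights the adjusted p of each was 0.76. In WT KD, library 12 was highest for Itgb2 (331) and Gpx3 (325), and library 25 for Nckap1l (357). The genes called on SD were chosen on values that both tests share, so that the signs of their own interactions carry no weight.

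Cd68 averaged 216 ± 49.1 in CSB SD and 80.2 ± 3.59 in WT SD, 199 ± 67.9 in CSB KD and 135 ± 54.8 in WT KD, 246 ± 5.57 in DKO SD and 96.7 ± 16.99 in INDY SD, and 195 ± 38.1 in DKO KD and 92.7 ± 23.0 in INDY KD. Its differences were 1.39 (CSB on SD), 0.58 (CSB on KD), 1.36 (DKO against INDY on SD) and 1.08 (DKO against INDY on KD). The diet difference of 0.81 (SE 0.31, adjusted p = 0.76) did not pass. One library labelled WT KD read 216 for Cd68 and 109.5 for Itgax, above the other 3 of its group. That library, numbered 25, also read 1041 for Gm6768 and 633 for Ercc6, values inside the ranges of the CSB groups, which goes against its label. It stays in the fit under its label, and without it 34 genes were called between CSB SD and WT SD, the 29 among them.

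Diet differences of the genes plotted across groups were 1.59 in Itgb2, 0.98 in Mpeg1, 0.92 in Itgax and 0.81 in Cd68. Library 25 was kept in WT KD for each. These genes were all called on SD, so their order carries no weight. Itgax differed by 1.49 between CSB KD and WT KD (SE 0.41, adjusted p = 0.539), with library 25 counted in WT KD. That library read 109.5 for Itgax, and the others of WT KD read 16.0 to 30.6. A KD difference without library 25 is not reported here. Between DKO KD and INDY KD Itgax differed by 2.59 (SE 0.37, adjusted p = 0.000261). Itgb2 averaged 203 ± 55.4 in CSB SD and 79.5 ± 12.0 in WT SD, but 151 ± 36.0 in CSB KD and 195 ± 95.8 in WT KD. Its diet difference was 1.59 (SE 0.36, adjusted p = 0.76), and WT KD libraries ranged from 109 to 331. Mpeg1 averaged 1059 ± 275 in CSB SD and 405 ± 62.4 in WT SD, against 797 ± 138 in CSB KD and 639 ± 230.1 in WT KD, a diet difference of 0.98 (SE 0.30, adjusted p = 0.76). Its highest WT KD value, 936, was that of library 25, which went against its label, and the others read 395 to 682. Among the 4 WT and INDY groups, WT SD had the lowest mean of Itgb2 and of Mpeg1.

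**Figure D5:**
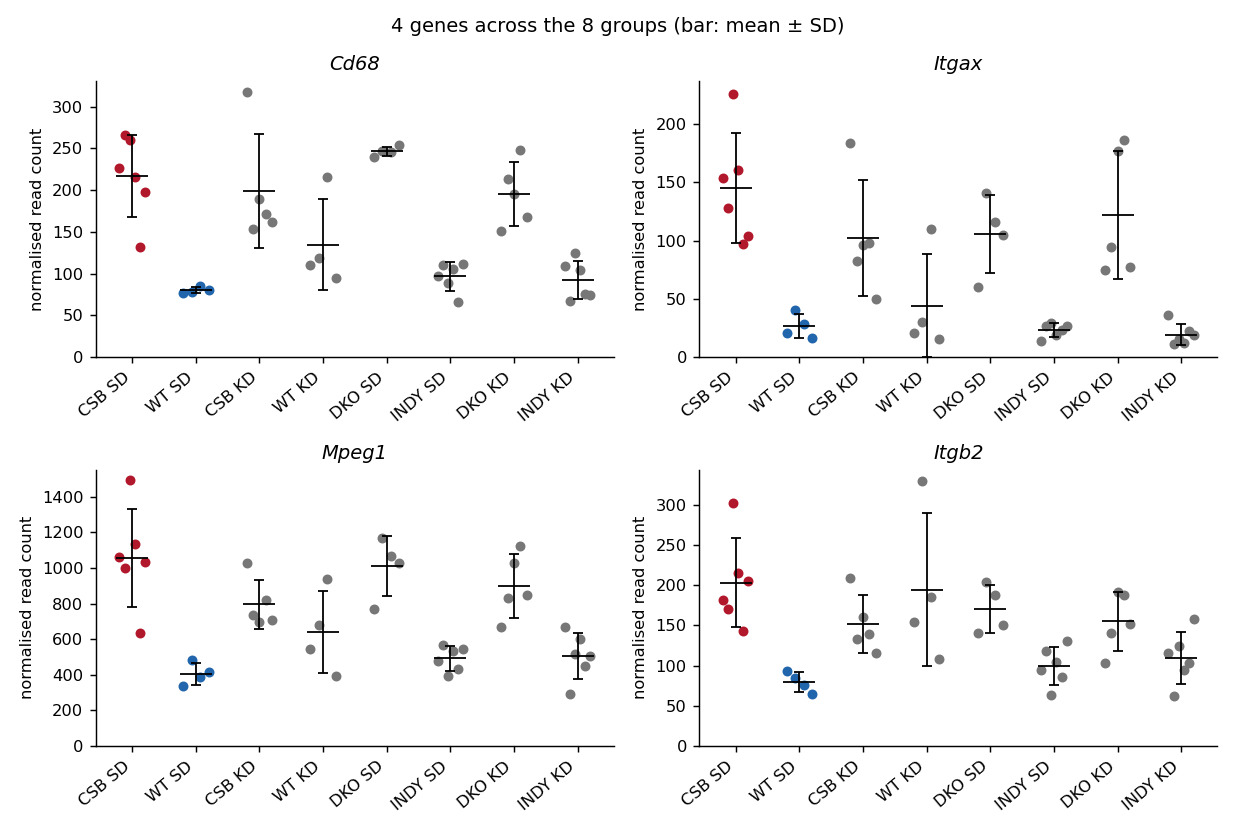
Normalised read counts of Cd68, Itgax, Mpeg1 and Itgb2 in all 8 groups, each CSB or DKO group left of the group it is compared with, with the mean and SD as bars and the axis from 0. CSB SD is above WT SD in all 4 panels, and WT KD is wide, with Itgb2 between 109 and 331 (WT KD 12).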

How the data were processed

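Total RNA of mouse cerebellum was sequenced in 40 libraries on a DNBseq platform after depletion of ribosomal RNA, per the labels' protocols. The authors deposited a signal per gene and library, an estimated read count that they had normalised. Bowtie2, Salmon and DESeq2 and the build mm9 are named, without versions, per the submitters' processing notes. Values are not whole, each library's median ratio to the geometric mean is 1.004, and whole reads could not be recovered, so depth is unknown and no counting interval is given.

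Symbols and positions came from GENCODE M21 (GRCm38), another build than mm9, for 54097 of 54331 gene IDs, 53444 with their version. Genes with a value of 10 or more in 4 or more libraries were tested on log2(value + 1) with limma 3.58.1 (R 4.3.3), 1 mean for each of 8 groups, no covariate, 32 residual degrees of freedom, and an intensity trend with robust variances. The threshold was a two-sided Benjamini-Hochberg adjusted p of 0.05 over all genes. Group values are mean ± SD, and folds are not printed where a group is at 0. The fit was first checked on simulated data. Noise there was independent between genes, so that the check cannot show how tissue content shared by many genes of a library moves the calls. Permutation used SciPy 1.17.1. Whether counting used strand is not given in the sources used here, so overlapping genes are uncertain.

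The genes named are Ercc6, Slc13a5, the calls, and called, smallest-p or highest-level members of each list described. The members and lists were chosen with earlier results of these data known, and some members of the lists are counted but not reported here by name. Alternatives were other pseudocounts (0.5 and 5), filters, rescaling, 2-group fits, covariates, array weights and each library left out. Labels name no batch. The 6 added after values were seen are the covariates for myelin, granule cells and microglia, and the fits without CSB SD 6 and 26, without CSB SD 16 and WT SD 41, and without WT KD 25.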

Additional observations from a re-analysis of the deposited data

Results flagged for a closer look

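In 131 groups of values, 12 single libraries lay far from the rest of their group by Dixon's ratio, where chance gives about 1 in 20 groups. Among genes, CSB SD 16 read 146.9 for Cst7, with the next library at 71.44, 21.65 for Bcl2a1a (next 12.04) and 8.504 for Kap (next 0.9752). WT SD 41 read 129.8 for Tyrobp (next 211.1), and WT SD 39 read 29.26 for Plau (next 38.3). Among mean log2 levels of lists, CSB SD 16 was at 10.95 for Purkinje cell markers (next 11.96) and at 7.62 for leukocyte integrin and NADPH oxidase genes (next 7.322). CSB SD 26 was at 11.37 for cytosolic ribosomal protein genes (next 11.12) and at 10.62 for nuclear oxidative phosphorylation genes (next 10.42). WT SD 41 was at 6.245 for pan-leukocyte genes (next 6.446), WT SD 39 at 5.058 for MHC class II genes (next 5.374) and WT SD 40 at 9.177 for transcription-coupled repair genes (next 9.263). No explanation was tested.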

How the results depend on the processing

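The count of 29 called genes became 11 with the liver level as a covariate, 7 with forebrain and liver levels, 15 with the microglia marker level, 12 without CSB SD 6 and 26, and 3 without CSB SD 16 and WT SD 41. It became 126 with array weights, which weight libraries by their spread, and the diet difference then had 3 calls. With 1 library left out it ran from 10 to 50. Under the other alternatives it was 24 to 35, and a fit of only the 2 groups gave 35 calls, 25 higher and 10 lower, of which 20 were among the 29. The other interaction stayed at 0. Gm6768, Cd68 and Mpeg1 were called under all 26 alternatives, and 195 of 751 single values of called genes fell short of the threshold with the same sign. No called gene changed sign. P2ry12 turned to 0.00638 with the liver covariate and ran from -0.12 to 0.060 with 1 library left out (6.27e-05, 0.032 and 0.026 without CSB SD 6, 8 and 30). Tmem119 turned to -0.0260, -0.00846 and -0.23 with the myelin, granule cell and microglia covariates. The cause was not tested. No paired analysis was possible because each library number occurs once and no number is shared between groups. Depth is unknown, so low values such as those of Bcl3, Ccl3 and Kap have no counting error beside them.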
